A study of Danio rerio with 9 samples.

Results

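The genes described here are 4 keratins and a transglutaminase of the embryonic skin, krt1-19d, krt1-19e, krt4, krt5 and tgm1l4. They are 5 of the 8793 genes that the array annotation names by a single symbol. All probe sets annotated with these symbols were taken, 7 of the 15502 left after control probe sets were removed. There were 2 probe sets each for krt1-19d and krt1-19e, called the brighter and the dimmer one below, and 1 probe set for each of the other genes. RNA came from eyes dissected from zebrafish embryos kept at 28.5 °C. Ethanol-exposed eyes at 27, 30, 36 and 48 hours post fertilization (hpf) were set beside control eyes of the same stages and an untreated sample taken at 24 hpf, before treatment, with 1 array per condition. The sources used here do not give the ethanol dose, the hours of exposure, the genotype or how many embryos were pooled. All groups were named by the sample titles. The treatment characteristic contradicts the titles at 2 stages: it marks the 36 hpf control array as ethanol, and the 30 and 36 hpf ethanol arrays as untreated.

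The eye of a zebrafish embryo is covered by surface ectoderm, so a dissected eye carries skin. At these stages the skin has an outer periderm, a flat sheet that forms early and seals the embryo, and beneath it a layer of basal keratinocytes. Keratins are the intermediate filaments of such cells, and each filament pairs a type I with a type II protein. krt4 and krt5 are type II keratins, and in zebrafish their promoters are used to mark the outer layer. krt1-19d and krt1-19e are type I keratins, and the promoter of krt1-19e, formerly krtt1c19e, is used in zebrafish to mark basal keratinocytes. Transglutaminases cross-link proteins, and mammalian TGM1 does so in the cornified envelope of the epidermis. tgm1l4 is a zebrafish gene named for its likeness to it.

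Values are MAS5 signals, the brightness of a probe set on a linear scale, and the number of arrays limits their precision. Differences are given on the log2(signal + 5) scale, which understates the change of dim probe sets. All 7 probe sets were among the 9301 bright enough to be tested. P-values came from limma fitted over all 9301 with Benjamini-Hochberg adjustment. With 1 array per condition, they rest on the spread between stages or around a line, part of which may be technical. limma also draws the spread of each probe set toward that of all tested ones. Standard errors and intervals thus do not rest on the arrays of that probe set alone. In dissected tissue, fewer skin cells and less RNA per skin cell cannot be told apart.

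The 5 genes followed 3 courses over development. krt1-19e rose, krt1-19d and tgm1l4 fell, and krt4 and krt5 did not pass the test. Of the 7 probe sets, 2 were called higher with age, both of krt1-19e, where 9.07% of all tested probe sets were called higher. A further 3 were called lower, against 7.39% of all tested. A call here needed an adjusted p below 0.05 and at least a 2-fold change over 24 hours. Members of this skin set thus moved in opposite directions in these eyes. The only gene that rose, krt1-19e, has a promoter used to mark basal keratinocytes and not the outer layer. Opposite directions among the periderm genes of this set are therefore not shown.

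**Figure D1:**
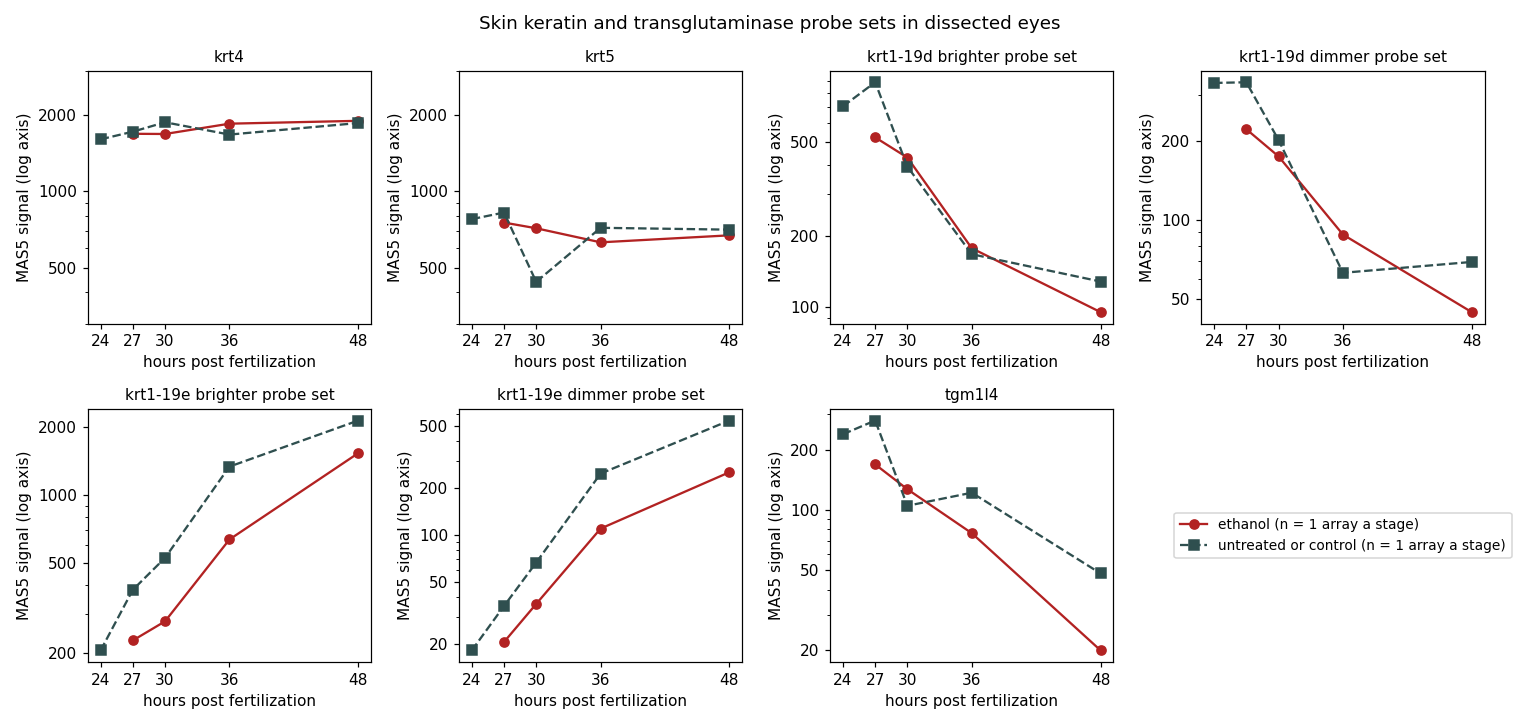
MAS5 signal (log axis) against hours post fertilization for the 7 probe sets, with 1 array per point, circles for ethanol eyes and squares for untreated or control eyes. The krt1-19e panels rise about in parallel with ethanol below control at all 4 stages, the krt1-19d and tgm1l4 panels fall, and krt4 stays between 1607 and 1902.

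krt1-19e, the keratin of basal keratinocytes, had the steepest course of the 5 genes. Its brighter probe set gave 206 at 24 hpf and then 228, 277, 638 and 1538 in ethanol eyes at 27, 30, 36 and 48 hpf, against 382, 529, 1340.4 and 2144 in control eyes. The signal was higher at each later stage in both courses, and within every stage the ethanol array was the lower one. Its dimmer probe set gave 18.3 at 24 hpf, then 20.7, 36.3, 110.2 and 253 in ethanol eyes, against 35.2, 66.8, 248 and 542 in control eyes. Both probe sets therefore ordered the 9 arrays in much the same way, with a Pearson correlation of 0.99 over the 9 arrays. At 48 hpf the control signal was 10.4 times that at 24 hpf for the brighter probe set and about 29.5 times for the dimmer one. The ratio of the dimmer one is uncertain, since its 24 hpf signal of 18.3 lies below the mean signal of 22.7 that a probe set needed to be tested, and detection calls were not used.

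The fitted rise of krt1-19e over 24 hours was 3.24 ± 0.28 (log2, SE, adjusted p = 1.98e-05) for the brighter probe set and 4.24 ± 0.37 (adjusted p = 1.98e-05) for the dimmer one. Without the 48 hpf arrays the dimmer one gave 6.52 over 24 hours. In control eyes most of the rise came before 36 hpf. Among control eyes the brighter signal at 36 hpf was 2.53 times that at 30 hpf, and that at 48 hpf was 1.60 times that at 36 hpf. Among ethanol eyes the same 2 steps were 2.30 and 2.41 times.

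krt1-19d, a type I keratin, ran the other way. Its brighter probe set gave 705 at 24 hpf and then 521, 428, 177 and 95.0 in ethanol eyes, against 891, 392, 167 and 128 in control eyes. The dimmer probe set gave 333 at 24 hpf, then 222, 175, 88.2 and 44.7 in ethanol eyes, against 335, 202, 63.1 and 69.4 in control eyes. The 24 and 27 hpf untreated arrays were the highest on both probe sets and the 48 hpf ethanol array the lowest. The fitted change over 24 hours was -2.79 ± 0.34 (adjusted p = 1.23e-04) and -2.51 ± 0.36 (adjusted p = 3.08e-04). Without the 48 hpf arrays these were -4.48 and -4.42. In control eyes the signal of the brighter probe set at 48 hpf was 0.182 of that at 24 hpf. Most of that difference arose between 27 and 36 hpf, with log2 steps of -1.18 and -1.20 in control eyes, and the step from 36 to 48 hpf was -0.37.

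tgm1l4 also fell. Its signals were 239 at 24 hpf, then 169, 127, 76.6 and 19.9 in ethanol eyes, against 279.9, 105, 122 and 48.2 in control eyes. The ethanol course was lower at each later stage, while the control course was flat between 30 and 36 hpf. The change over 24 hours was -2.64 ± 0.30 (adjusted p = 7.50e-05). At 48 hpf the ethanol signal was 0.118 of that at 27 hpf, and in control eyes this ratio was 0.172. Over the 9 arrays tgm1l4 correlated with the brighter krt1-19d probe set at 0.91 and with the brighter krt1-19e probe set at -0.77. These are descriptions only, since the arrays share their stages.

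krt4 and krt5, the keratins whose promoters mark the outer layer, did not show a trend. krt4 gave 1607 at 24 hpf, then 1690, 1687, 1853 and 1902 in ethanol eyes, against 1723, 1877, 1678 and 1864 in control eyes. Its highest signal was 1.18 times its lowest. The fitted change over 24 hours was 0.17, with a 95% interval of -0.14 to 0.48 (adjusted p = 0.369), so a 2-fold change in either direction lies outside that interval. krt5 gave 777 at 24 hpf, then 753, 715, 629 and 670.4 in ethanol eyes, against 825, 439, 718 and 706 in control eyes. The 30 hpf control array stood below the other 8, which lay between 629 and 825. The change over 24 hours was -0.09, with an interval of -0.64 to 0.45 (adjusted p = 0.803).

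With ethanol, krt1-19e was lower by 0.80 ± 0.14 on its brighter probe set (log2, limma SE, adjusted p = 0.0352). On its dimmer one it was lower by 0.91 ± 0.14 (adjusted p = 0.0262). These were the only 2 of the 7 probe sets called in the fit with stage as a block, and they belong to 1 gene. Over all tested probe sets 2.25% were called in either direction and 0.624% lower. In the order of the stages, the differences of the brighter probe set were -0.73, -0.92, -1.07 and -0.48, so all 4 had the same sign. Those of the dimmer one were -0.64, -0.80, -1.13 and -1.09. In signal, ethanol eyes at 36 hpf had 0.476 and 0.445 of the control level on these probe sets. With a stage left out the differences stayed near these values, but the adjusted p was not always below 0.05. Without the 48 hpf arrays both probe sets stayed called in limma, at -0.91 and -0.86 (adjusted p = 0.0328 and 0.0365). Without the 30 hpf arrays they were -0.76 and -0.95 (adjusted p = 0.124 and 0.0934), and without the 36 hpf arrays -0.71 and -0.84 (adjusted p = 0.151 and 0.132). Without the 27 hpf arrays the brighter one stood at -0.82 (adjusted p = 0.0578), and the dimmer one stayed called in limma at -1.01 (adjusted p = 0.0291). The labels disagree at 30 and 36 hpf. When the treatment characteristic set the groups, which turns the 36 hpf pair round and leaves no pair at 30 hpf, the differences were -0.05 and -0.20 (adjusted p = 1 for both). On the 27 and 48 hpf pairs alone, where the labels match, they were -0.60 and -0.86 (adjusted p = 0.503 and 0.470).

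**Figure D2:**
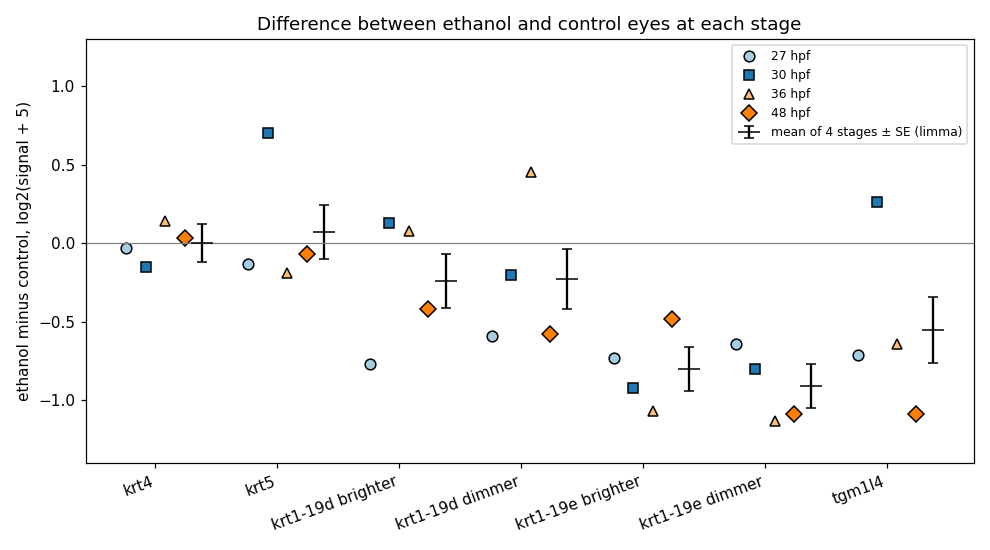
Ethanol minus control on the log2(signal + 5) scale for each probe set, with 1 symbol per stage (1 array in each group) and the limma mean of 4 stages ± SE beside them. The symbols of krt1-19e lie between -1.13 and -0.48, those of krt4 within 0.15 of 0, and krt5 has a single high symbol at 30 hpf (0.70).

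The other members did not pass the ethanol test. tgm1l4 stood at -0.55 ± 0.21 (adjusted p = 0.158), with differences of -0.71, 0.26, -0.64 and -1.09 from the earliest stage to the latest. Its ethanol array was thus the lower one at 3 of the 4 stages. krt1-19d stood at -0.24 ± 0.17 on the brighter probe set (adjusted p = 0.423) and at -0.23 ± 0.19 on the dimmer one (adjusted p = 0.488). On the brighter probe set its differences were -0.77 and -0.42 at the first and last stage but 0.13 and 0.08 at the stages between, so the sign changed. krt4 stood at 0.00 ± 0.12 (adjusted p = 0.993), with an interval of -0.28 to 0.28. krt5 stood at 0.07 ± 0.17 (adjusted p = 0.824), with an interval of -0.31 to 0.46. Its difference was 0.70 at 30 hpf and between -0.19 and -0.07 at the other stages, and without the 30 hpf arrays its mean was -0.13. For these 4 genes a miss of the threshold does not show that ethanol and control eyes had the same level.

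At single stages a difference was counted when it reached 2-fold and the brighter signal lay above the median of the tested probe sets on its array. No member probe set reached this at 27 or 30 hpf, where 0.194% and 0.247% of all tested were lower by that rule. At 36 hpf both krt1-19e probe sets did, against 0.129%. At 48 hpf the dimmer krt1-19e probe set did, against 1.3% of all tested. tgm1l4 was also over 2-fold lower at 48 hpf, but its control signal of 48.2 was below the median of the tested probe sets on that array.

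The ethanol difference of no member was called as changing with stage. In the fit with the product of hpf and ethanol, 0 of the 7 probe sets passed in limma, none had an unadjusted p under 0.05, and 0.118% of all tested were called. tgm1l4 had the lowest p of the 7, at -0.95 ± 0.55 per 24 hours (adjusted p = 0.522), and the dimmer krt1-19e probe set stood at -0.85 ± 0.74 (adjusted p = 0.698). The brighter krt1-19e probe set gave -0.07 ± 0.59 (adjusted p = 0.977). The intervals were wide, at -2.17 to 0.27 for tgm1l4.

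The krt1-19e signal of each ethanol array was also placed on the course of the 5 untreated arrays by interpolation between neighbouring stages, a description chosen after the values were seen. On the brighter probe set the ethanol arrays at 27, 30, 36 and 48 hpf matched the untreated course at 24.5, 25.4, 31.2 and 39.5 hpf. On the dimmer probe set they matched it at 24.5, 27.1, 32.3 and 36.3 hpf. All 8 placements were earlier than the age of the array. That had to be so, since the untreated signal rose at each step and every ethanol signal was below its control. The placements therefore restate the ethanol difference and are not separate evidence for it.

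krt1-19e and krt1-19d are neighbours. In the RefSeq annotation of the GRCz12tu assembly, krt1-19d is followed on the same chromosome by krt1-19e, krt92, cyt1l, cyt1, krt17 and krt91, with no other protein-coding gene among them. Of these, krt17 and krt91, also type I keratins, had probe sets with a single symbol. krt91 rose by 1.72 ± 0.22 over 24 hours (adjusted p = 1.57e-04) and krt17 fell by 1.05 (SE 0.25, adjusted p = 0.00647). Without the 48 hpf arrays these changes were 2.88 and -1.93. krt17 was under 2-fold without the 24 or the 27 hpf arrays (-0.96 each) and did not pass on the 5 untreated arrays alone (-0.92, adjusted p = 0.0794). Along the chromosome the 4 measured genes thus fell, rose, fell and rose with age. The signals of krt91 were 529 at 24 hpf, then 550.4, 763, 1168 and 1624 in ethanol eyes, against 744, 1023, 1478 and 1909 in control eyes. Its ethanol array was the lower one at each stage, by 0.23 to 0.43, but its mean of -0.36 ± 0.12 did not pass (adjusted p = 0.128). Neighbouring keratins are related in sequence, and whether a probe set also bound RNA of another keratin was not tested.

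**Figure D3:**
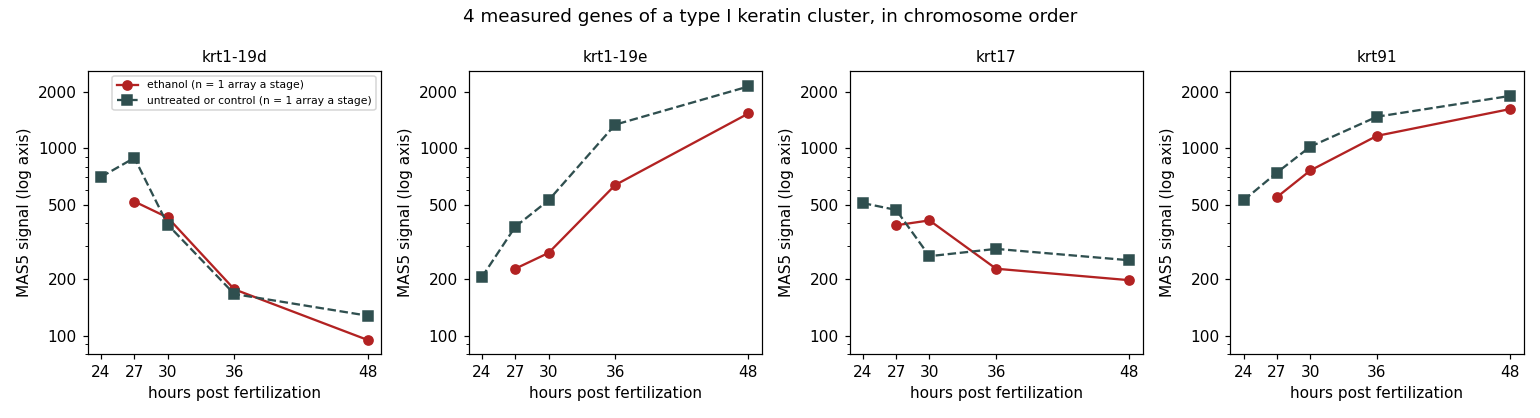
MAS5 signal (log axis) against hours post fertilization for krt1-19d, krt1-19e (brighter probe set of each), krt17 and krt91 in chromosome order, with circles for ethanol eyes and squares for untreated or control eyes, 1 array per point. krt1-19e and krt91 rise and have ethanol below control at each stage, whereas krt1-19d and krt17 fall and their 2 courses cross.

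The genes whose level most resembled each member over the 9 arrays were named by Pearson correlation, as a description. For krt1-19e they were both probe sets of krt91 (0.984 and 0.983) and gdpd3a, of a phosphodiesterase family (0.982). For krt1-19d they were the sulfotransferase gene sult2st2 (0.987), the nuclear receptor gene nr2f6b (0.987) and nvl, an ATPase of ribosome assembly (0.986). For tgm1l4 they were qpctla, of the glutaminyl cyclases (0.994), the glutamine synthetase gene glulb (0.989) and smyd4, of a methyltransferase family (0.986). For krt4 they were ribosomal protein genes, rplp2 (0.984), rpl5b (0.975) and rps3a (0.974), and like krt4 they had small changes over 24 hours, of 0.28 to 0.39. For krt5 the closest, washc2c (0.890), golph3b (0.887) and stxbp2 (0.878), were less alike.

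Of the other keratins, 12 of 14 on the array were bright enough to be tested, a list taken by symbol that also holds icn, icn2 and krtcap2, which are not keratins. Over development 3 rose and 2 fell, all keratins, where 9.07% of all tested probe sets were called higher and 7.39% lower. The median change was 0.09, against -0.04 over all tested. Besides krt91, those that rose were krt15, a type I keratin (2.27 ± 0.19, adjusted p = 1.55e-05), and krt94 (1.31 ± 0.34, adjusted p = 0.0102). The rise of krt94 rested on the 48 hpf arrays, without which its change was -0.34. krt99 fell by 1.20 (SE 0.28, adjusted p = 0.00559), together with krt17, and its call was lost without the 48 hpf arrays (-1.85, adjusted p = 0.0513) and on the untreated arrays alone (-1.10, adjusted p = 0.0713). None of the 12 was called with ethanol in limma, where the median of the 12 was 0.04, equal to that of all tested probe sets.

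krt15 was not called with ethanol. It gave 52.1 at 24 hpf, then 64.6, 66.6, 99.9 and 269 in ethanol eyes, against 78.3, 93.4, 168 and 269 in control eyes. The ethanol array was lower at 27, 30 and 36 hpf and level at 48 hpf, and the mean of -0.36 ± 0.15 did not pass (adjusted p = 0.186). The type II keratin krt8 of simple epithelia, named after its values were seen, lay on the other side, with a mean of 0.42 ± 0.13 (adjusted p = 0.106). It gave 991, 1190.4, 1003 and 1110.3 in ethanol eyes, against 898, 833, 711 and 762 in control eyes, and all 4 ethanol signals were the higher ones.

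The transglutaminase list had 2 testable genes. f13a1b, which is related to the coagulation factor XIII A chain, fell by 2.34 over 24 hours (SE 0.27, adjusted p = 8.09e-05), beside -2.64 for tgm1l4, and by 3.67 without the 48 hpf arrays. Its signals were 101 at 24 hpf, then 93.7, 60.9, 28.7 and 19.6 in ethanol eyes, against 102, 50.4, 30.9 and 16.3 in control eyes. Unlike tgm1l4 it lay within 0.25 of control at all stages. tgm2b stood at -0.41 ± 0.19 for development (adjusted p = 0.116) and -0.18 ± 0.15 for ethanol (adjusted p = 0.488).

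Further skin genes were grouped by role, and their counts stand beside the same shares of all tested probe sets (9.07% higher and 7.39% lower with development, 2.25% with ethanol). Of 17 genes of epidermal junctions and the envelope, 0 were called with development in limma, and 1 rose with ethanol. That gene was dspa, for the desmosome protein desmoplakin (0.75 ± 0.14, adjusted p = 0.0412). It gave 34.0, 49.3, 46.3 and 43.5 in ethanol eyes against 19.9, 20.2, 26.8 and 27.9 in control eyes. Its control signals at 27 and 30 hpf lie below the mean signal of 22.7 that a probe set needed to be tested. Without the 27, 30 or 36 hpf arrays its difference was 0.79, 0.63 and 0.77 and its call was lost (adjusted p = 0.0631, 0.127 and 0.151). By the treatment characteristic it was 0.17 (adjusted p = 1). The median ethanol difference of the 17 was 0.25, with 12 above 0. At 30 hpf all 17 were higher in ethanol than in control eyes, with a median difference of 0.50, where 56.6% of all tested probe sets were higher. At the other stages 10 or 11 of the 17 were. At 30 hpf the outer epidermis genes were higher in 11 of 19 (median 0.02) and krt4 stood at -0.15. By contrast 14 of 15 epidermal regulators (median 0.42), 12 of 14 brain genes (median 1.08) and all 9 blood and vessel genes (median 0.44) were higher. So were 10 of 12 other keratins (median 0.25) and all 3 basal epidermis genes (median 0.47). Retina and lens genes went the other way, with 1 of 13 (median -0.38) and 1 of 5 (median -0.31) higher. The krt5 signal of the control array also stood apart at that stage, and the part of any tissue in these differences was not tested.

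Of 19 outer epidermis genes, agr2, a disulfide isomerase of mucous cells (3.34 ± 0.32, adjusted p = 2.97e-05), and caspb, an inflammatory caspase (2.72 ± 0.26, adjusted p = 2.80e-05), rose over development. capn9, a calpain protease, fell by 1.18 (SE 0.28, adjusted p = 0.00669), and its call was lost without the 48 hpf arrays (-1.09, adjusted p = 0.0572) and on the untreated arrays alone (-0.58, adjusted p = 0.133). Without the 48 hpf arrays agr2 gave 5.02. None of the 19 was called with ethanol in limma, and their median was -0.06. From the earliest stage to the latest, 11, 11, 7 and 6 of the 19 were higher in ethanol eyes. The median differences were 0.03, 0.02, -0.11 and -0.22. Over all tested probe sets 55.6%, 56.6%, 51.6% and 49.6% were higher. Of 15 epidermal regulators, the transcription factor genes tfap2a (1.40 ± 0.18, adjusted p = 1.81e-04) and tfap2c (1.74 ± 0.22, adjusted p = 1.37e-04) rose with age. Both calls were lost without the 48 hpf arrays (adjusted p = 0.137 and 0.0939). dlx3b, a homeobox gene of the early ectoderm border, was higher with ethanol by 0.65 ± 0.12 (adjusted p = 0.0428). Without any 1 of the 4 stages it stood at 0.61 to 0.70 and the call was lost (adjusted p of 0.0608 to 0.163), and by the treatment characteristic it was 0.18 (adjusted p = 1). Of the basal epidermis list 3 genes were tested and 0 called in either fit by limma. They were tp63, the regulator of stratified epithelia, itga6b and lama5. tp63 changed by -0.91 ± 0.16 over 24 hours (adjusted p = 0.0012 in limma) and missed a call only by the 2-fold limit. Its ethanol mean was 0.05 ± 0.12. With ethanol itga6b stood at 0.25 ± 0.15 and lama5 at 0.64 ± 0.18 (adjusted p = 0.348 and 0.0892 in limma). All 3 ethanol means lay above 0, that of tp63 close to the median of 0.04 over all tested, and krt1-19e lay below 0. Of the 18 genes in the basal list only 4 were on the array. At 36 hpf 1 of the 3 tested was higher in ethanol eyes. The part of basal cells in the krt1-19e difference was not tested.

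**Figure D4:**
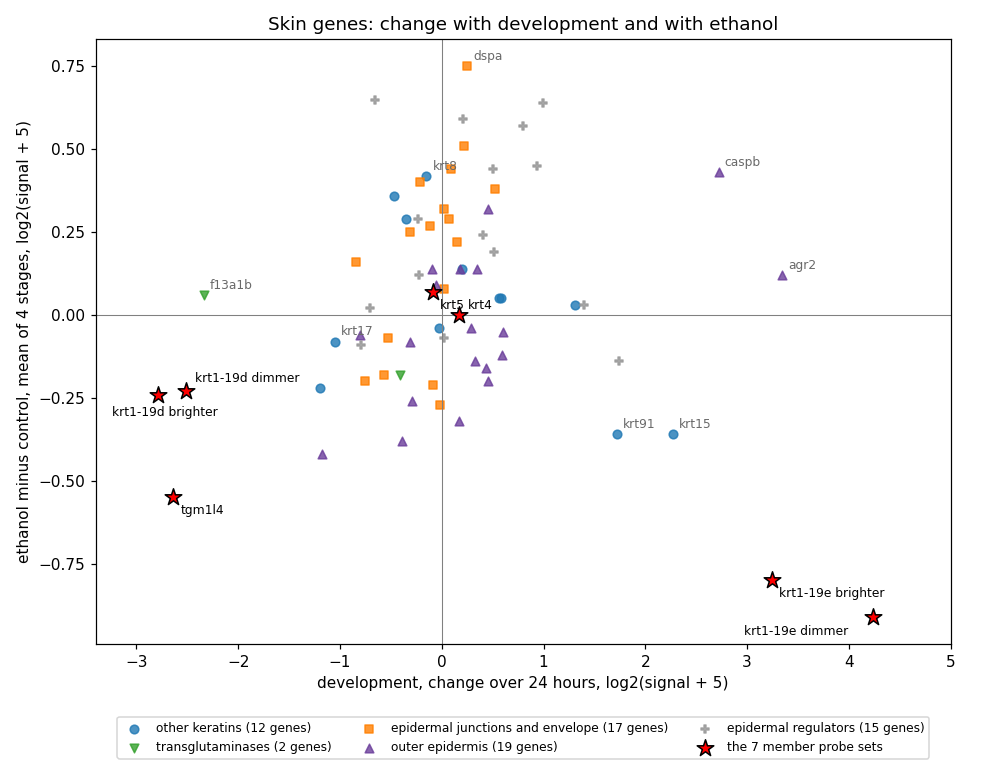
Each point is a tested gene of a skin list or 1 of the 7 member probe sets. The lists drawn are other keratins, transglutaminases, epidermal junctions and envelope, outer epidermis and epidermal regulators. The basal epidermis genes are not drawn. The horizontal axis is the change over 24 hours of development, the vertical axis the ethanol minus control mean of 4 stages. Both are in log2(signal + 5). The krt1-19e probe sets lie alone at the lower right with krt91 and krt15 nearest to them, and dspa lies at the top.

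Lists of brain, blood and vessel, retina, lens, muscle and hatching gland genes were set beside the members. Whether the genes of the brain list came only from tissue outside the eye was not tested. Of 14 tested brain genes 3 rose with ethanol, where 2.25% of all tested probe sets were called in either direction. All 14 means lay above 0, with a median of 0.71, but at 27 hpf only 8 were higher, with a median difference of 0.05. Sums of signal were taken over all listed genes on the array, tested or not. The 17 brain genes summed to 1624 to 2696 in ethanol eyes, against 995 to 1612 in control eyes. In the untreated eyes of 24 hpf the sum was 1687, which lies within the ethanol range. Of 9 blood and vessel genes 3 rose with ethanol and 8 means lay above 0, with a median of 0.36. The sums of the 12 on the array were 3371 to 4411 in ethanol eyes, against 2421 to 3290 in control eyes and 3168 at 24 hpf. These sums mostly follow globin genes. The brightest of them alone gave 1569 to 2289 in ethanol eyes and 1182 to 1977 in control eyes. The outer epidermis list, with 23 genes on the array, summed to 7165 to 7610 in ethanol eyes and to 7072 to 8018 in control eyes, so those ranges overlapped. Retina genes had 9 of 13 means below 0, but the direction differed by stage. From the earliest stage to the latest, 4, 1, 8 and 8 of the 13 were higher in ethanol eyes. The median differences were -0.09, -0.38, 0.15 and 0.13. Of the 13, 1 was called lower with ethanol, where 0.624% of all tested were. It was vsx1, at -0.75 ± 0.13 (adjusted p = 0.032 in limma), and like krt1-19e it also rose with age (4.07 ± 0.34 over 24 hours). The 14 retina genes on the array summed to 3432 to 6302 in ethanol eyes, against 3692 to 6756 in control eyes. None of 5 lens, 4 muscle and 4 hatching gland genes tested was called with ethanol in limma (medians 0.03, -0.24 and 0.18). The muscle genes differed in direction by stage. At 27, 30 and 36 hpf 3 of the 4 were higher in ethanol eyes, with median differences of 0.15, 0.79 and 0.27. At 48 hpf 0 of the 4 were, with a median difference of -2.08. The 11 muscle genes on the array summed to 328 to 951 in ethanol eyes, against 295 to 3731 in control eyes. No listed gene was at 0 on all arrays. The part of these tissues in the krt1-19e difference was not tested.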

How the data were processed

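The authors deposited signal intensity values for 9 Affymetrix zebrafish arrays, 1 per condition. The submitters' processing notes name MAS5, without a version. The 2% trimmed mean was 125.02 on each array, so the arrays were used as deposited. Depth does not exist for array signals, and detection calls were not used here.

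Probe sets were named from the platform annotation (10802 of 15617 with 1 symbol, 135 with several, 4680 with none), and 10718 symbols were looked up by gene identifier in RefSeq. Signals became log2(signal + 5), and the upper 60% by mean (9301 probe sets) was kept. Fits used limma 3.58.1 in R 4.3.3 and were checked on simulated data. Calls of development also needed a 2-fold change. The ethanol effect used 8 arrays with stage as a block (3 residual degrees of freedom), development was a linear term for hpf in a fit of all 9 arrays that also held an ethanol term (6 residual degrees of freedom), and the interaction added the product of both (5). All calls needed an adjusted p below 0.05. Alternatives were other pseudocounts, filters, scalings, stages left out and groups by the treatment characteristic. The placement on the untreated course was added after the values were seen.

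The members and gene lists were chosen with earlier results of these data known. Genes named are the members, the 3 probe sets most correlated with each, and the called genes of the keratin, transglutaminase and skin lists. In the transglutaminase and basal epidermis lists, where fewer than 3 were called, the brightest were named too. For the brain, blood and vessel, retina, lens, muscle and hatching gland lists only ethanol calls are given, and of those genes only vsx1 is named. krt8 is an exception. A list counts the brightest probe set of each gene.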

Additional observations from a re-analysis of the deposited data

How the results depend on the processing

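The development calls held for all 5 member probe sets under 2 pseudocounts (1 and 16), both scalings, no filter, each stage left out, the 5 untreated arrays alone and a slope on log2 of hpf. The upper 30% of probe sets gave 3 because the dim ones were not tested, and 624 calls in all, against 1531. The change over 24 hours ranged from 3.01 to 4.80 for the brighter krt1-19e probe set, from -4.48 to -2.51 for the brighter krt1-19d one and from -2.80 to -2.25 for tgm1l4.

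The ethanol call of the members was less stable. The dimmer krt1-19e probe set stayed called in 7 of 11 alternatives and the brighter one in 5 of 12, and the difference stayed below 0 in all of them (-1.01 to -0.20 and -0.91 to -0.05). Of the 2 member calls, 1 was left with no filter (0.0580 for the brighter probe set), 1 with the upper 30% and 1 under quantile normalization (0.0692). Leaving out a stage left 0 to 2, and 0 were left with the treatment characteristic or the 27 and 48 hpf pairs alone. The calls of dspa and dlx3b were also lost with no filter (0.0637 and 0.0654) and under quantile normalization (0.0705 each), and they held in 4 of 11 and 4 of 12 alternatives. In limma at an unadjusted p under 0.05 the fits by the characteristic and on the 27 and 48 hpf pairs had 1 and 5 member probe sets.

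Over all probe sets the ethanol count (209, of which 151 higher and 58 lower) was 322 with pseudocount 16 (108 lower), 67 with no filter (53 and 14), 23 under quantile normalization (12 and 11), and 4 to 182 with a stage left out (4 to 140 higher, 0 to 42 lower). It was 119 lower with the upper 30% and 131 lower with 150 higher under median centring. It was 0 by the characteristic and 0 on the 27 and 48 hpf pairs (84 and 873 at an unadjusted p under 0.05). The interaction count (11) was 7 with pseudocount 1, 23 with pseudocount 16, 17 under quantile normalization, 0 with no filter (1804 at an unadjusted p under 0.05) and 0 to 12 with a stage left out. At 30 hpf the count lower by 2-fold (23) was 51 under median centring, with 1 member, and 36 under quantile normalization. The cause of these shifts was not tested, apart from the fewer arrays or probe sets in some fits.

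Values near 0 changed sign. The ethanol mean of krt4 was 0.02 under quantile normalization, 0.01 and 0.05 without 27 or 30 hpf, and 0.00 on the 27 and 48 hpf pairs. That of krt5 was -0.13 without 30 hpf, -0.01 by the characteristic and -0.10 on those pairs, with a leave-out range of -0.13 to 0.16. The development change of krt5 was 0.05 without 27 hpf (-0.55 to 0.05 over the stages left out). Interactions turned for the brighter krt1-19d probe set (0.02 with pseudocount 16, 0.06 under median centring, and 0.04, 0.15 and 0.42 without 24, 30 or 48 hpf) and for the dimmer one (0.07, 0.06, and 0.04 and 1.45 without 30 or 48 hpf). They also turned for the brighter krt1-19e probe set (0.00 under median centring, 0.37 and 0.06 without 24 or 36 hpf), krt4 (-0.03 under quantile normalization) and krt5 (0.02 without 30 hpf). With a stage left out the lowest interactions of the first 3 probe sets were -0.24, -0.23 and -1.18. krt94 turned to -0.34 for development without 48 hpf (highest 1.69). None of these but krt94 had been called.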
